A study of Mus musculus with 56 samples.

Results

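The lines described here are the 28 Tet2 knockout (KO) lines of a panel of conditionally immortalised mouse myeloid progenitor clones, 4 grown in GM-CSF and 24 grown in SCF. They were taken by genotype and cytokine label, with no use of measured values, from 56 libraries in all. The other 28 libraries are control lines of the same clones, and they are used to tell which cytokine differences are also found where Tet2 is intact. The readout is ATAC-seq of 1000 cells per library, where Tn5 transposase places adapters into accessible DNA so that read counts follow how open a region is.

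All clones came from Tet2 fl/fl bone marrow. The paper's text names 1 mouse as their source, while its reporting summary gives lines of both sexes for the study. Each clone is described as the progeny of 1 granulocyte-monocyte progenitor (GMP). A retrovirus carrying Hoxb8 fused to the oestrogen receptor domain had immortalised the clones. Beta-estradiol at 0.5 µM in the medium kept the fusion protein active in every line. GM-CSF KO lines are clones 19 to 22 kept in 10 ng/ml GM-CSF and given Cre. SCF KO lines are clones 1 to 5, 7 to 18 and 23 to 29 kept in conditioned medium with about 100 ng/ml SCF and given Cre. GM-CSF control lines (n = 4) and SCF control lines (n = 24) are the same clones given GFP in place of Cre. Cre and GFP came from an integrase-defective lentiviral vector at a multiplicity of infection of 200, so KO lines carried the floxed alleles after Cre and control lines carried them intact. Every line is 1 clone, and no clone was grown in both cytokines. The effect of a cytokine therefore cannot be told apart from a difference between the clones derived in it. The same holds for a difference between mice, if more than 1 was used. For clones 20, 21 and 22 the sample titles say SCF, but the treatment labels, library names and series design all say GM-CSF, which was followed.

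GM-CSF signals through a receptor made of a private alpha chain and the common beta chain (Csf2ra and Csf2rb), which activates Jak2 and STAT5 and promotes survival and maturation of granulocytes and macrophages. SCF signals through the receptor tyrosine kinase Kit, which marks stem and progenitor cells and supports their survival and self-renewal. Tet2 oxidises 5-methylcytosine and so favours loss of DNA methylation, at enhancers above all, and its loss in blood stem cells expands myeloid progenitors. Hoxb8 held active blocks maturation, and the growth protocol describes the progenitors kept in SCF as neutrophil-biased and those kept in GM-CSF as macrophage progenitors.

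Depth limits what the GM-CSF KO lines can show. Total counts were 40876, 39379, 468878 and 437883 in GM-CSF KO clones 19 to 22, against 130049 to 1079233 (median 351522) in SCF KO lines. Clones 19 and 20 together held 8.13% of the GM-CSF KO counts, and 1 count was worth 33.8 and 33.3 CPM in them, against 2.92 and 3.17 CPM in clones 21 and 22. CPM scales a locus to a library's counts in the tested loci after TMM scaling (an effective total of 29543 and 29988 in clones 19 and 20), and not to the total count above. Values of clones 19 and 20 are thus multiples of about 33 CPM, and a fold change fitted to the counts rests mainly on clones 21 and 22, so it can differ from the ratio of the mean CPM. Between GM-CSF KO lines, 5 of 6 pairs differed by no more than sampling noise in a chi-square test of their counts (clones 19 and 20 with p = 0.900, clones 21 and 22 with p = 3.25e-04), where the shallow libraries leave little power. Among SCF KO lines 5 of 276 pairs did so. All were kept as separate replicates because each clone has its own label. The X chromosome held 1.09% to 1.27% of the counts in GM-CSF KO lines, against 1.22% to 1.40% in SCF KO clones 23 to 29 and 1.52% to 1.63% in SCF KO clones 1 to 18, and its part in the results was not tested beyond the fits that leave clones or X loci out. Counts in promoter peaks made up 34.7% to 42.4% (median 39.3%) of the total in GM-CSF KO lines, against 31.2% to 50.4% (median 46.1%) in SCF KO lines.

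The targeted gene was looked at first, as a check of the labels. The Tet2 locus, taken as the peaks centred up to 10 kb from its start (gene at chr3:133463679-133545139), had 33.8, 0, 43.8 and 47.5 CPM in GM-CSF KO lines, against a lowest, median and highest of 25.1, 42.5 and 77.7 CPM in SCF KO lines, with overlapping groups (log2 difference -0.05 ± 0.29, adjusted p = 0.947). Both groups had received Cre, and these peaks lie around the start of the gene, where they cannot show the deletion.

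The sequences of 4 single peaks are printed here because they had some of the smallest p-values in each direction and lie outside exons. Each is the central 200 bases of a peak on the plus strand of GRCm38 (mm10), in lower case, with matches to 10 of the binding motifs used here (AP-1, CEBP, PU.1, ETS, RUNX, GATA, MYB, STAT, HOX-MEIS and IRF) in capitals. A match is a description of letters and not evidence of binding. The first pair was more accessible in GM-CSF KO lines and the other pair was less accessible. The Dstn promoter peak, which lies in a UTR exon, belonged to the same ranking and is given by its values only.
Peak 14350 bp from the start of Noct, chr3:51209997-51210196, intergenic, with matches to the MYB motif TAACGG and the STAT motif TTCNNNGAA: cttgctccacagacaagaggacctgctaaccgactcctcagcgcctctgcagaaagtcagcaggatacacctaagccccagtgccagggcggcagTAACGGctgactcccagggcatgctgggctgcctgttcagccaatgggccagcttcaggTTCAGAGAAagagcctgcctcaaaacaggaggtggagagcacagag
Peak in an intron, 9390 bp from the start of Adssl1, chr12:112629383-112629582, with a match to the CEBP motif TTGCNNAA: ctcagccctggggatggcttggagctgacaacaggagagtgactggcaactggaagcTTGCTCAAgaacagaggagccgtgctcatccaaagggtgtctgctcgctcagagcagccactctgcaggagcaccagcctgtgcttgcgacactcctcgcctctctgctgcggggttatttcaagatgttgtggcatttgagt
Peak 143820 bp from the start of Haao, chr17:83990532-83990731, intergenic, with a match to the RUNX motif TGTGGTT: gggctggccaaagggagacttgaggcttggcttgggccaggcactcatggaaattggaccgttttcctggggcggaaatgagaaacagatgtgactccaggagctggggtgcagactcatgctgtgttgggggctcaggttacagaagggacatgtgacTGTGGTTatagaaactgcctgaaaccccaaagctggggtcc
Peak 32629 bp from the start of Rpn1, chr6:88117011-88117210, intergenic, with no match to these motifs: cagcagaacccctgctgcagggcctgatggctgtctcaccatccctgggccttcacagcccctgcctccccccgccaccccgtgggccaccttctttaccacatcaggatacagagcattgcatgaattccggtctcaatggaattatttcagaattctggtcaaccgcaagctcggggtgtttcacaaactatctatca

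Of all peaks counted, 2.00% hold the MYB motif, 8.74% the STAT motif, 13.3% the CEBP motif and 10.5% the RUNX motif on either strand. Peak values are scaled to the counts of the tested peaks and cannot be set beside those of loci. The Noct peak had 118, 225, 231 and 184 CPM in GM-CSF KO clones 19 to 22, against a lowest, median and highest of 0, 21.8 and 66.7 CPM in the 24 SCF KO lines. Every GM-CSF KO line lay above every SCF KO line, and the fitted log2 difference was 3.04 ± 0.31 (SE; adjusted p = 1.79e-15). At the Adssl1 peak the values were 235, 282, 306 and 290.4 CPM in GM-CSF KO lines, against 15.7, 88.6 and 157 CPM in SCF KO lines, again with no overlap (log2 difference 1.66 ± 0.19, adjusted p = 4.77e-13).

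Both peaks that were lower in GM-CSF KO lines had few counts there. At the Haao peak GM-CSF KO lines had 0, 56.4, 10.7 and 11.9 CPM, against 91.0, 180.2 and 258 CPM in SCF KO lines (log2 difference -3.67 ± 0.40, adjusted p = 5.06e-14). The Rpn1 peak had 0, 0, 16.1 and 0 CPM in GM-CSF KO lines, against 95.7, 154 and 453 CPM in SCF KO lines (log2 difference -4.31 ± 0.49, adjusted p = 6.70e-13). It also lies 76.8 kb upstream of the start of Gata2, a position remarked on after its values were seen, and a distal Gata2 enhancer at about that distance is known in mice. Both were below every SCF KO line in each GM-CSF KO line. In the control lines all 4 peaks differed in the same direction, with log2 differences of 2.43 ± 0.24 (Noct), 1.60 ± 0.16 (Adssl1), -2.43 ± 0.28 (Haao) and -3.28 ± 0.40 (Rpn1), and the largest adjusted p among them was 1.37e-11.

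For genes, the counts of every peak whose centre lay at most 10 kb from the transcription start of a protein-coding gene were added up as its locus, and 11714 of 18715 loci had enough counts to be tested. Loci that several genes share carry 1 signal, and accessibility is not transcription. In GM-CSF KO lines 512 loci were higher, which is 4.37% of those tested, and 642 were lower, which is 5.48%, at an adjusted p under 0.05. Among the tested loci the lower calls moved further. Their median log2 difference was -1.01, and 67 were under -2, while the higher calls had a median of 0.80 and 9 over 2. Loci open mainly in the few GM-CSF KO lines could fail the filter on counts, so these sizes hold only for loci that passed it. The median of all loci tested was -0.02. Among the called loci, 35 of the higher and 90 of the lower had no overlap between the GM-CSF KO and the SCF KO lines. Such loci were not counted over all tested loci, so neither number has a background to be set against. The counts rest on clones 21 and 22: without clone 21 there were 167 higher and 265 lower loci, and without clone 22 there were 139 and 240. With DESeq2 in place of edgeR there were 263 and 377. With the promoter share of each library as a covariate, 404 of the 512 higher and 514 of the 642 lower loci were still called.

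Regulators of stem and early progenitor cells were mostly lower in GM-CSF KO lines. Their list, like the others, was chosen with earlier results of these data known. Of its 28 genes 20 could be tested, and 17 were lower and none higher. The median log2 difference was -1.62, against -0.02 for all loci. Calls in this list and in the others stand beside 4.37% higher and 5.48% lower among all tested loci. With DESeq2 15 of the 20 were lower. The defining markers Lmo2, Erg and Mecom had too few counts for the filter. Lmo2 had means of 35.2 ± 23.0 CPM in GM-CSF KO lines and 13.8 ± 8.81 CPM in SCF KO lines (SD, n = 4 and 24). It was not called when all loci were fitted with no filter (log2 difference 0.59 ± 0.47, adjusted p = 0.547). Erg had 9 counts in GM-CSF KO lines and 89 in SCF KO lines, and Mecom 2 and 21. Sox4, an HMG-box factor of progenitors and leukaemia, had 102, 33.3, 26.3 and 28.5 CPM at its locus (chr13:28948919-28953713) in GM-CSF KO clones 19 to 22, against a lowest, median and highest of 94.1, 154 and 205 CPM in SCF KO lines. Only clone 19, with 3 counts, reached into the range of the SCF KO lines, and the log2 difference was -2.33 ± 0.25 (adjusted p = 1.13e-13). Hlf, a PAR bZIP factor of haematopoietic stem cells (chr11:90336536-90390895), had 0, 0, 2.92 and 12.7 CPM in GM-CSF KO lines, against 31.1, 65.1 and 118 CPM in SCF KO lines. The groups did not overlap, and the GM-CSF KO lines held 0, 0, 1 and 4 counts (log2 difference -3.34 ± 0.44, adjusted p = 6.24e-10).

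Cd34, the sialomucin that marks stem cells and GMPs (chr1:194938819-194961279), had 33.8, 33.3, 26.3 and 25.3 CPM in GM-CSF KO lines, against 37.8, 86.8 and 155 CPM in SCF KO lines (log2 difference -1.79 ± 0.29, adjusted p = 5.74e-07). Here too each GM-CSF KO line was below each SCF KO line. Hmga2, a chromatin protein of fetal-type progenitors, had 0, 0, 5.84 and 3.17 CPM in GM-CSF KO lines, against 12.6, 38.8 and 84.0 CPM in SCF KO lines, with no overlap (log2 difference -3.24 ± 0.55). Adgrg1, an adhesion receptor of stem cells, had 67.7, 100.0, 26.3 and 31.7 CPM, against 101, 163 and 214 CPM in SCF KO lines, and the groups were apart by a narrow margin (log2 difference -2.29 ± 0.25).

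Meis1, a TALE homeobox partner of Hox proteins, had 33.8, 33.3, 20.5 and 19.0 CPM in GM-CSF KO lines, against 19.3, 56 and 109 CPM in SCF KO lines (log2 difference -1.60 ± 0.33, adjusted p = 1.62e-04). A single SCF KO line fell within the range of the GM-CSF KO lines. Gata2, a zinc-finger factor of stem, mast and early progenitor cells (chr6:88193891-88207032), had 67.7, 66.7, 46.8 and 31.7 CPM in GM-CSF KO lines, against 50.3, 97.7 and 168 CPM in SCF KO lines, where 22 lines were above all GM-CSF KO lines (log2 difference -1.23 ± 0.25, adjusted p = 1.27e-04). Kit, the SCF receptor (chr5:75574916-75656722), had 169, 33.3, 14.6 and 22.2 CPM in GM-CSF KO lines, against 44.1, 92.9 and 129 CPM in SCF KO lines. Clone 19 was above all SCF KO lines on 5 counts while clones 20, 21 and 22 were below all of them, and the fitted log2 difference was -1.84 ± 0.30 (adjusted p = 6.91e-07). Tal1, a bHLH partner of Gata factors, had 102, 133, 14.6 and 22.2 CPM in GM-CSF KO lines, against 51.2, 93.3 and 145 CPM in SCF KO lines (log2 difference -1.90 ± 0.30). Clones 19 and 20, on 3 and 4 counts, lay within the SCF KO range and clones 21 and 22 below it. Without clones 19 and 20 the counts of called loci were 537 higher and 625 lower, a fit added after seeing the data, and they held 444 of the 512 higher and 550 of the 642 lower calls.

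Flt3, a receptor of multipotent and lymphoid-primed progenitors, and Myb, a factor of proliferating progenitors, were lower by less (log2 differences -0.76 ± 0.22 and -0.71 ± 0.21). Gfi1b, a repressor of erythroid and stem cells, was not called, with 0, 33.3, 55.5 and 60.2 CPM in GM-CSF KO lines, against 36.7, 66.6 and 109.7 CPM in SCF KO lines (log2 difference -0.22 ± 0.25, adjusted p = 0.656), although the peak 139 bp from its start was lower (4.31 ± 5.63 CPM in GM-CSF KO lines against 44.4 ± 16.8 CPM in SCF KO lines, SD, n = 4 and 24). Hoxa9, a partner of Meis1, did not pass either (log2 difference -0.89 ± 0.40, adjusted p = 0.152). Summed over the list, the loci held 700.3 to 1388 CPM in GM-CSF KO lines and 1654 to 2170 CPM in SCF KO lines. The sums did not overlap. Of the 5 genes listed from the study's ranking of control clones as more open where Tet2 loss had a strong effect, Sox4, Gata2, Meis1 and Runx3 were lower and Gfi1b was not called. As that ranking used the control libraries of these clones, their direction is not independent evidence.

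**Figure D1:**
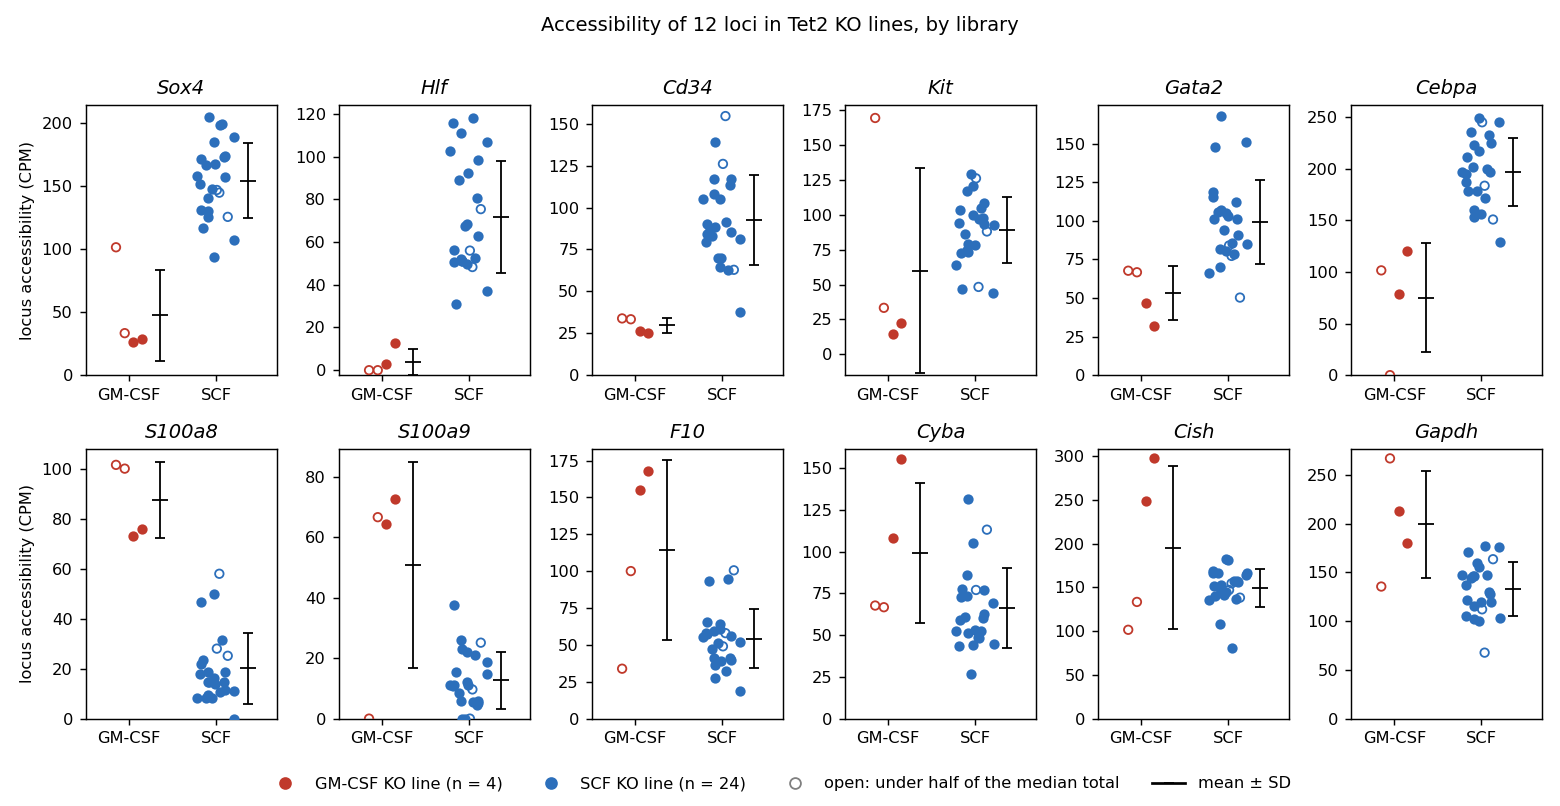
Accessibility of 12 loci in CPM (y axis) in each Tet2 KO line grown in GM-CSF (red) or SCF (blue), with the mean and SD beside the points, and open points for libraries under 50% of the median total count. Sox4, Hlf, Cd34, Gata2 and Cebpa lie lower and S100a8, S100a9, F10 and Cyba mostly higher in GM-CSF KO lines, and for Kit the highest GM-CSF KO value, 169 CPM, comes from shallow clone 19 with 5 counts.

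Genes of later neutrophil maturation lay on the other side. Of 24 in the list, 14 could be tested, and 7 were higher in GM-CSF KO lines and none lower (median log2 difference 0.61). With DESeq2 4 of the 14 were higher. S100a8, a subunit of the neutrophil and monocyte protein calprotectin (chr3:90668978-90670035), had 102, 100.0, 73.1 and 76.0 CPM in GM-CSF KO lines, against 0, 15.4 and 58.0 CPM in SCF KO lines. All GM-CSF KO lines were above all SCF KO lines (log2 difference 2.09 ± 0.33, adjusted p = 2.09e-07). Its partner S100a9 had 0, 66.7, 64.3 and 72.8 CPM in GM-CSF KO lines, against 0, 11.0 and 37.5 CPM in SCF KO lines, and clone 19 had no count (log2 difference 2.44 ± 0.39, adjusted p = 2.52e-07). These genes are neighbours, so their values need not be independent.

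Ngp, a protein of secondary granules, had 33.8, 100.0, 96.4 and 72.8 CPM in GM-CSF KO lines, against 11.4, 30.2 and 60.3 CPM in SCF KO lines (log2 difference 1.46 ± 0.26). Cd177, a neutrophil surface glycoprotein, had 67.7, 0, 52.6 and 57.0 CPM in GM-CSF KO lines, against 0, 14.5 and 37.8 CPM in SCF KO lines (log2 difference 1.76 ± 0.38). At both loci the groups overlapped through 1 shallow GM-CSF KO line. Ltf, the secondary granule protein lactoferrin, and Lrg1, a leucine-rich glycoprotein of granulocytes, were higher as well (log2 differences 1.26 ± 0.42 and 1.13 ± 0.29). Camp, the cathelicidin of secondary granules, had too few counts to be tested with the filter, with 31 counts in the 4 GM-CSF KO lines and 52 in the 24 SCF KO lines, or a mean of 31.3 CPM in GM-CSF KO lines and 8.72 CPM in SCF KO lines. Lcn2 (0.00 ± 0.16), Cebpe (-0.22 ± 0.18), Mmp8 (0.35 ± 0.28) and Csf3r, the G-CSF receptor (0.27 ± 0.31), did not pass the test, and Ly6g, a defining surface marker of neutrophils, was too shallow to test, at 5 counts in GM-CSF KO lines and 17 in SCF KO lines (means of 3.78 ± 4.47 and 2.76 ± 4.33 CPM, SD, n = 4 and 24).

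Genes of the phagocyte oxidase and of adhesion followed. Where 4.37% of all tested loci were higher and 5.48% lower, 5 of 11 tested phagocyte genes were higher and none lower (median log2 difference 0.49). This fell to 2 higher of 11 with DESeq2 and 2 of 10 with SCF clones 23 to 29 alone. Cyba, the p22phox membrane subunit of the NADPH oxidase, had 67.7, 66.7, 108 and 155 CPM in GM-CSF KO lines, against 26.6, 60.6 and 132 CPM in SCF KO lines (log2 difference 1.00 ± 0.20, adjusted p = 9.74e-05). Clone 22 was above all SCF KO lines, and 10 SCF KO lines lay within the GM-CSF range. Ncf4 and the integrin chain Itgb2 were higher by less, and their calls were lost in 13 and 10 of 42 other settings (log2 differences 0.54 ± 0.18 and 0.57 ± 0.19). Of 10 tested Toll-like receptor genes and adaptors, 2 were higher and none lower: Tlr4, the endotoxin receptor (1.09 ± 0.33), and Tlr6, which pairs with Tlr2 (0.96 ± 0.21). With DESeq2 1 of the 10 was higher. Tlr2 was not tested. F10, coagulation factor X (chr8:13037308-13056676), had 33.8, 100.0, 155 and 168 CPM in GM-CSF KO lines, against 18.9, 53.6 and 101 CPM in SCF KO lines (log2 difference 1.54 ± 0.19, adjusted p = 7.42e-11). Clones 21 and 22 were above all SCF KO lines and clones 19 and 20, on 1 and 3 counts, were not. F10 and S100a8 belong to 3 genes that the same ranking gave as more open where Tet2 loss had a weak effect, which is again not independent evidence, and Timp2, the other one, was not called (log2 difference 0.32 ± 0.25).

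GMP genes went in both directions. With 3 higher, 3 lower and 6 not called of 12 tested, the median log2 difference was 0.07. Cebpa, the factor that commits progenitors to the granulocyte-monocyte lineage (chr7:35119293-35121928), had 102, 0, 78.9 and 120.4 CPM in GM-CSF KO lines, against 129.5, 197 and 249 CPM in SCF KO lines. No GM-CSF KO line reached the SCF KO range (log2 difference -1.08 ± 0.18, adjusted p = 2.10e-06). Mpo, myeloperoxidase of primary granules, had 67.7, 100.0, 49.7 and 47.5 CPM, against 29.2, 88.7 and 149 CPM in SCF KO lines, with wide overlap (log2 difference -0.78 ± 0.25, adjusted p = 0.0228). Ctsg, cathepsin G, was also lower (-0.93 ± 0.23), while Elane (-0.12 ± 0.16) and Prtn3 (-0.32 ± 0.17), the other serine proteases of these granules, were not called. Ms4a3, a membrane protein of GMPs, was higher (1.01 ± 0.32), as were Spi1, which encodes PU.1 (0.74 ± 0.17), and Gfi1, a repressor needed for neutrophils (0.70 ± 0.17). Of the 10 tested primary granule genes, 1 was higher and 2 lower. Fcgr3, an Fc receptor gene used as a GMP marker, had 67.7, 100.0, 78.9 and 63.3 CPM in GM-CSF KO lines, against 31.1, 46.6 and 75.4 CPM in SCF KO lines, and was not called (log2 difference 0.51 ± 0.24, adjusted p = 0.173). Of the 11 tested markers set to check the GMP label, 1 was higher and 5 were lower in GM-CSF KO lines, so these markers were not all as open there as in SCF KO lines.

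The monocyte and macrophage genes that could be tested did not move together, although the protocol names GM-CSF cells as macrophage progenitors. Of 18 tested, 2 were higher and 3 lower, with a median log2 difference of 0.04. Among all tested loci 4.37% were higher and 5.48% lower. Klf4, a factor of monocyte differentiation, had 33.8, 0, 20.5 and 41.2 CPM in GM-CSF KO lines, against 53.1, 88.5 and 135 CPM in SCF KO lines, and was below every SCF KO line in every GM-CSF KO line (log2 difference -1.54 ± 0.28, adjusted p = 1.11e-05). Ccr2, the chemokine receptor of inflammatory monocytes, had 0, 33.3, 17.5 and 12.7 CPM, against 19.3, 42.9 and 101 CPM in SCF KO lines (log2 difference -1.58 ± 0.39). F13a1, the factor XIII subunit of macrophages, was lower too (-1.16 ± 0.31). On the higher side stood Lyz2, lysozyme M of neutrophils and macrophages, with 33.8, 100.0, 55.5 and 72.8 CPM in GM-CSF KO lines, against 3.73, 22.6 and 37.7 CPM in SCF KO lines (log2 difference 1.58 ± 0.32), and C5ar1, the receptor of complement C5a (0.89 ± 0.22), on counts of clones 21 and 22 alone. Csf1r, the M-CSF receptor, was not called, with 33.8, 0, 58.4 and 41.2 CPM in GM-CSF KO lines, against 14.0, 46.1 and 88.0 CPM in SCF KO lines (log2 difference 0.08 ± 0.29, adjusted p = 0.912). Irf8, a factor of monocytes and dendritic cells, missed the threshold (-0.98 ± 0.35, adjusted p = 0.0549), and so did Adgre1 (0.01 ± 0.39), Cd14 (0.06 ± 0.21), Cd68 (0.12 ± 0.12) and Nr4a1 (-0.11 ± 0.16).

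Some macrophage and neutrophil loci were too shallow for the filter and are not in these counts. Ly6c2, a surface antigen of inflammatory monocytes, had 33.8, 33.3, 58.4 and 66.5 CPM in GM-CSF KO lines, against 5.67, 18.3 and 31.5 CPM in SCF KO lines, without overlap. Fcgr1, the high-affinity IgG receptor, had 67.7, 66.7, 32.1 and 31.7 CPM, against 9.28, 20.2 and 29.6 CPM in SCF KO lines, also without overlap. When all loci were fitted with no filter, the log2 differences were 1.82 ± 0.34 for Ly6c2 (adjusted p = 1.72e-05), 2.35 ± 0.42 for Camp (adjusted p = 9.41e-06), 0.65 ± 0.37 for Fcgr1 (adjusted p = 0.355) and 0.99 ± 0.40 for Tlr2 (adjusted p = 0.131). The same fit gave 2.06 ± 0.35 for Pparg, a nuclear receptor of alveolar macrophages (adjusted p = 2.06e-06), which was singled out after its values were seen. Fcgr4 had 1.43 ± 0.35 in that fit (adjusted p = 0.00219). Retnlg (0.79 ± 0.41, adjusted p = 0.289) and Il1rn (0.71 ± 0.47, adjusted p = 0.451) were not called in it.

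Genes of the C/EBP, KLF and RUNX factors were divided, with 4 higher and 4 lower of 21 tested and a median log2 difference of 0.22. Runx1, needed for blood stem cell formation, had 67.7, 0, 49.7 and 41.2 CPM in GM-CSF KO lines, against 50.3, 84.6 and 116 CPM in SCF KO lines (log2 difference -0.94 ± 0.25, adjusted p = 0.00495). Runx3 had 102, 100.0, 70.1 and 57.0 CPM, against 106, 125 and 181 CPM in SCF KO lines, and did not overlap (log2 difference -0.97 ± 0.21). Zbtb16, the zinc-finger factor PLZF, had 0, 0, 8.77 and 22.2 CPM, against 24.6, 46.0 and 85.5 CPM in SCF KO lines, without overlap (log2 difference -1.67 ± 0.40). Cebpb, the C/EBP factor of emergency granulopoiesis and macrophages, was higher with 102, 200.1, 222 and 199.5 CPM, against 69.3, 131 and 201 CPM in SCF KO lines (log2 difference 0.64 ± 0.15, adjusted p = 0.00145), on peaks it shares with another gene.

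Of 18 tested cytokine receptors none was higher and 2 were lower in GM-CSF KO lines, Kit and Flt3. Csf2ra and Csf2rb, the chains of the GM-CSF receptor, are given although they fell outside the rule for named genes. Their log2 differences were -0.27 ± 0.17 (adjusted p = 0.353) and 0.36 ± 0.25 (adjusted p = 0.419), neither called. In the list of STAT5 signalling and feedback, 4 of 24 were higher and 3 lower (median 0.04), where 4.37% and 5.48% of all tested loci were. Cish, a STAT5 target that restrains cytokine receptors (chr9:107296026-107302784), had 102, 133, 248 and 298 CPM in GM-CSF KO lines, against 80.5, 153 and 183 CPM in SCF KO lines, and clones 21 and 22 stood above all SCF KO lines while clones 19 and 20 did not (log2 difference 0.77 ± 0.14, adjusted p = 1.12e-05). Its peak 671 bp from the start had 142 ± 47.9 CPM in GM-CSF KO lines and 43.0 ± 20.0 CPM in SCF KO lines (SD, n = 4 and 24). Mcl1, a survival protein of the Bcl2 family (0.74 ± 0.13), Ptpn6, the phosphatase Shp1 (0.73 ± 0.12), and Socs1, a feedback inhibitor of Jak kinases (0.62 ± 0.16), were also higher. Socs3, the feedback inhibitor of gp130 and G-CSF receptors, was lower, with 102, 133, 137 and 136 CPM in GM-CSF KO lines, against 126, 218 and 268 CPM in SCF KO lines (log2 difference -0.69 ± 0.16, adjusted p = 0.00109). Socs2 was not called (0.64 ± 0.27).

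Markers of other lineages were examined because a culture could hold other cells. Cpa3, the carboxypeptidase of mast cells and basophils, had no count in any GM-CSF KO line and 303 counts in SCF KO lines, where the lowest, median and highest were 0, 42.0 and 56.7 CPM. With a floor of 3 counts over the 4 libraries it was at least 10.5-fold lower in GM-CSF KO lines (adjusted p = 3.09e-09). Cpa3 was the only called gene among the 5 tested basophil, eosinophil and mast cell genes (median -0.68), and the defining mast cell genes Fcer1a and Ms4a2 were too shallow to test. Fcer1a had a mean of 0.731 CPM in GM-CSF KO lines and 0.938 CPM in SCF KO lines, on 1 and 8 counts, and Ms4a2 a mean of 16.8 CPM in GM-CSF KO lines and 1.35 CPM in SCF KO lines, on 2 and 8 counts. Of 9 tested B cell genes 3 were lower, the factors Ebf1 (-2.08 ± 0.34) and Pax5 (-1.20 ± 0.35) and the polymerase Dntt (-1.59 ± 0.31), and 1 was higher, the antigen receptor chain Cd79b (1.12 ± 0.33), with a median of -0.25. Ebf1 had 67.7, 0, 20.5 and 9.50 CPM in GM-CSF KO lines, against 29.0, 68.0 and 112 CPM in SCF KO lines. Of 9 erythroid and megakaryocyte genes only Itga2b, the integrin CD41 of megakaryocytes and early progenitors, was called, and it was lower (-1.56 ± 0.27, list median -0.19). Of 7 dendritic cell genes 1 was lower, Tcf4 (-0.80 ± 0.27, list median 0.05), and none of 8 MHC class II genes (median -0.15) and none of 4 T and NK cell genes (median 0.12) was called. Summed over the defining markers, erythroid and megakaryocyte loci had 271 to 418 CPM in GM-CSF KO lines and 446 to 645 CPM in SCF KO lines, without overlap, although Itga2b alone of the 4 tested markers was called. The sums of the other lineages overlapped: 67.7 to 101 CPM in GM-CSF KO lines and 87.0 to 226 CPM in SCF KO lines for basophils, eosinophils and mast cells, 263 to 406 and 333 to 479 CPM for B cells, 66.7 to 266 and 233 to 396 CPM for dendritic cells, and 33.3 to 181 and 119 to 292 CPM for T and NK cells. Whether a share of other cells had a part in any difference was not tested, and in bulk libraries fewer cells of a type and less accessibility per cell cannot be told apart.

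The remaining lists were called in part, and their counts stand beside 4.37% higher and 5.48% lower among all tested loci. In glycolysis and hypoxia 4 of 22 were higher and none lower (median 0.13): Slc16a3, the lactate exporter (0.96 ± 0.20), Gapdh (0.58 ± 0.15), Eno1 (0.55 ± 0.15) and Ldha (0.53 ± 0.18), whose call was lost in 18 of 41 other settings. Gapdh had 135, 267, 213 and 181 CPM in GM-CSF KO lines, against 67.6, 133 and 177 CPM in SCF KO lines, but within 50 kb instead of 10 kb its log2 difference was -0.10. Of 18 lysosomal genes 2 were higher, the cathepsin Ctsz, with 102, 100.0, 105 and 98.2 CPM in GM-CSF KO lines, against 14.0, 40.1 and 77.7 CPM in SCF KO lines and no overlap (1.38 ± 0.24), and the hexosaminidase subunit Hexa (1.41 ± 0.21), on shared peaks (list median -0.04). In the inflammatory NF-kB list 2 of 16 were higher, the cytokines Il1a (1.04 ± 0.31) and Tnf (0.63 ± 0.19), and none lower (median -0.05). The calls of Il1a and Tnf were lost in 4 of 40 and 5 of 42 settings, and with DESeq2 the list had no call. Among immediate early and AP-1 genes 2 of 22 were higher and 3 lower (median -0.05). Maff (0.63 ± 0.20, call lost in 9 of 42 settings) and Mafg (0.42 ± 0.14, call lost in 15 of 42 settings) were on the higher side. Jun (-0.62 ± 0.17) and Jund (-0.43 ± 0.14) were on the lower. Neither the interferon response (10 tested, median -0.23) nor the HoxA and HoxB clusters (14 tested, median -0.40) had a call. Of 22 cell cycle genes E2f2, a factor of S-phase entry, was lower (-0.93 ± 0.22, list median -0.10). Of 15 DNA methylation genes Dnmt3b, a de novo methyltransferase, was lower (-1.45 ± 0.49, list median -0.13), and Tet3 (-0.21 ± 0.23) and Dnmt3a (-0.32 ± 0.24) were not called. The Dnmt3b call rested on 8 counts in GM-CSF KO lines and was lost in 6 of 41 settings, DESeq2 among them. Of 14 chemokine and homing genes only Ccr2 was called (list median -0.13). Among 15 housekeeping genes 3 were higher, Gusb (0.84 ± 0.20), Gapdh and Ppia (0.46 ± 0.14), and 1 lower, Polr2a (-0.50 ± 0.17, call lost in 12 of 42 settings), with a median of -0.08.

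**Figure D2:**
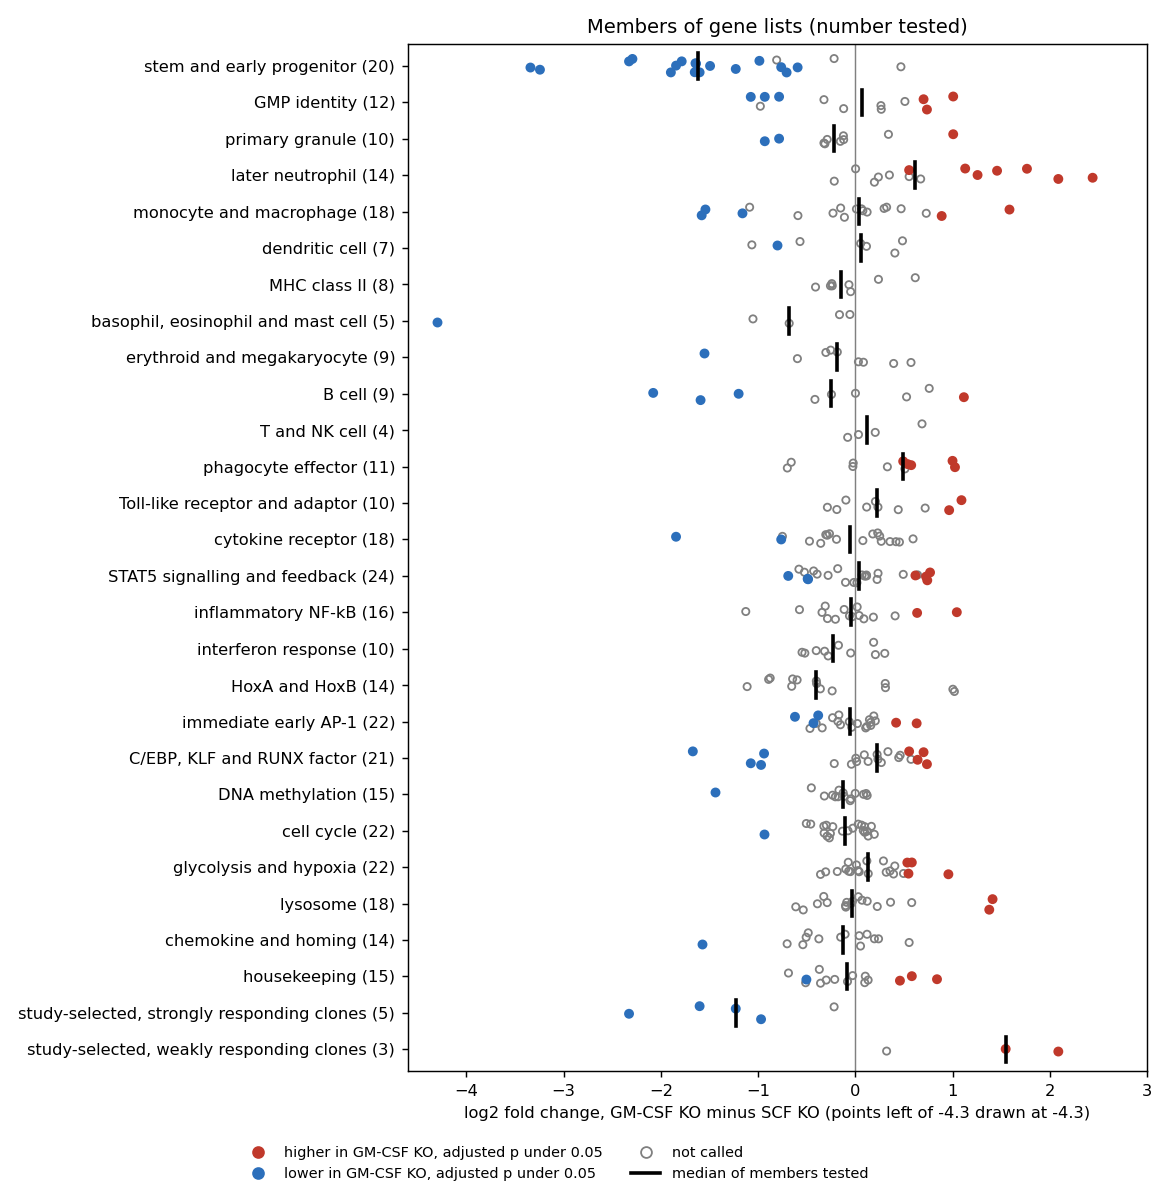
Log2 difference between GM-CSF KO and SCF KO lines (x axis) of every tested member of the 28 gene lists (y axis, number tested in brackets), with red points higher and blue points lower in GM-CSF KO lines at an adjusted p under 0.05, open points not called and a bar at the median of the list. The stem and early progenitor list is centred at -1.62 and the later neutrophil list at 0.61, while most lists are centred near 0.

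Ranked by size among loci of at least median accessibility, the largest differences below were at genes of several kinds. Nrip1, a nuclear receptor corepressor, had 0, 0, 20.5 and 25.3 CPM in GM-CSF KO lines, against 75.4, 109.6 and 139 CPM in SCF KO lines (log2 difference -2.36 ± 0.29). Akap13, a kinase anchor protein, had 0, 33.3, 26.3 and 9.50 CPM in GM-CSF KO lines, against 73.2, 95.8 and 138 CPM in SCF KO lines (log2 difference -2.37 ± 0.31). At neither locus did the groups overlap. Bcor, a corepressor encoded on the X chromosome, was below every SCF KO line in each GM-CSF KO line (-2.31 ± 0.32). Trib2, a pseudokinase that degrades C/EBPα, had 135, 33.3, 26.3 and 6.33 CPM, against 101, 145 and 178 CPM in SCF KO lines, with clone 19 inside the SCF KO range (-2.65 ± 0.27). Others were Sh3bp4 (-2.87 ± 0.38), Cxxc5, a CpG-binding inhibitor of Wnt signalling (-2.53 ± 0.29), the Src-family kinase Fyn (-2.43 ± 0.32), and Sox4 and Adgrg1 given above.

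Among the tested loci the largest differences above were smaller, where the filter on counts could leave out loci open mainly in GM-CSF KO lines. Dstn, the actin-severing protein destrin (chr2:143915320-143943324), had 135, 300.1, 164 and 152 CPM in GM-CSF KO lines, against 40.6, 61.4 and 88.2 CPM in SCF KO lines (log2 difference 1.35 ± 0.18, adjusted p = 5.40e-10). Ptgs1, the cyclooxygenase COX-1, had 169, 200.1, 134 and 136 CPM, against 27.8, 64.9 and 94.1 CPM in SCF KO lines (log2 difference 1.21 ± 0.19, adjusted p = 2.19e-07), and Ptges, a prostaglandin E synthase, had 203, 133, 161 and 152 CPM, against 48.4, 75.8 and 124 CPM in SCF KO lines (log2 difference 1.02 ± 0.18). In all 3 the GM-CSF KO lines stood above every SCF KO line. Dgkz, a diacylglycerol kinase, was higher with 1 SCF KO line inside the GM-CSF range (1.04 ± 0.18). Nfic (1.05 ± 0.18), the cyclin-like gene Ccno (0.99 ± 0.16), the zinc-finger repressor Snai1 (0.97 ± 0.19) and Tmem79 (0.96 ± 0.18, on shared peaks) were also among the 10, as was Cyba. For Ccno and Snai1 a shallow line was at 0.

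The same cytokine contrast in control lines, where Tet2 is intact, was set beside that in KO lines to see which differences persisted without Tet2. In GM-CSF control lines 744 loci were higher (5.76% of 12918 tested) and 856 lower (6.63%) than in SCF control lines. These libraries share their clones with the KO lines but no cells, so the pair of contrasts is not independent. Of 11681 loci tested in both genotypes, 303 were higher in both, which is 59.5% of the KO calls and 44.9% of the control calls, and 407 were lower in both, which is 63.4% and 50.9%. No locus was called in opposite directions. The loci higher in both had a median log2 difference of 0.86 in KO lines and 0.72 in control lines, and those lower in both had -1.24 in KO lines and -1.09 in control lines.

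Many loci named above were among them. The log2 differences in control lines were -2.10 ± 0.20 for Sox4, -2.61 ± 0.31 for Hlf, -2.39 ± 0.29 for Cd34, -1.76 ± 0.24 for Kit, -1.64 ± 0.21 for Gata2 and -2.10 ± 0.29 for Meis1. They were 2.09 ± 0.22 for S100a8, 2.31 ± 0.31 for S100a9, 1.29 ± 0.15 for F10, 0.95 ± 0.16 for Cyba and 0.64 ± 0.12 for Cish. All 11 were called in control lines with the sign they had in KO lines. The stem and early progenitor list had 16 lower and none higher of 22 tested in control lines, and the later neutrophil list 8 higher and none lower of 16. In the phagocyte list 7 of 13 were higher in control lines and none lower.

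**Figure D3:**
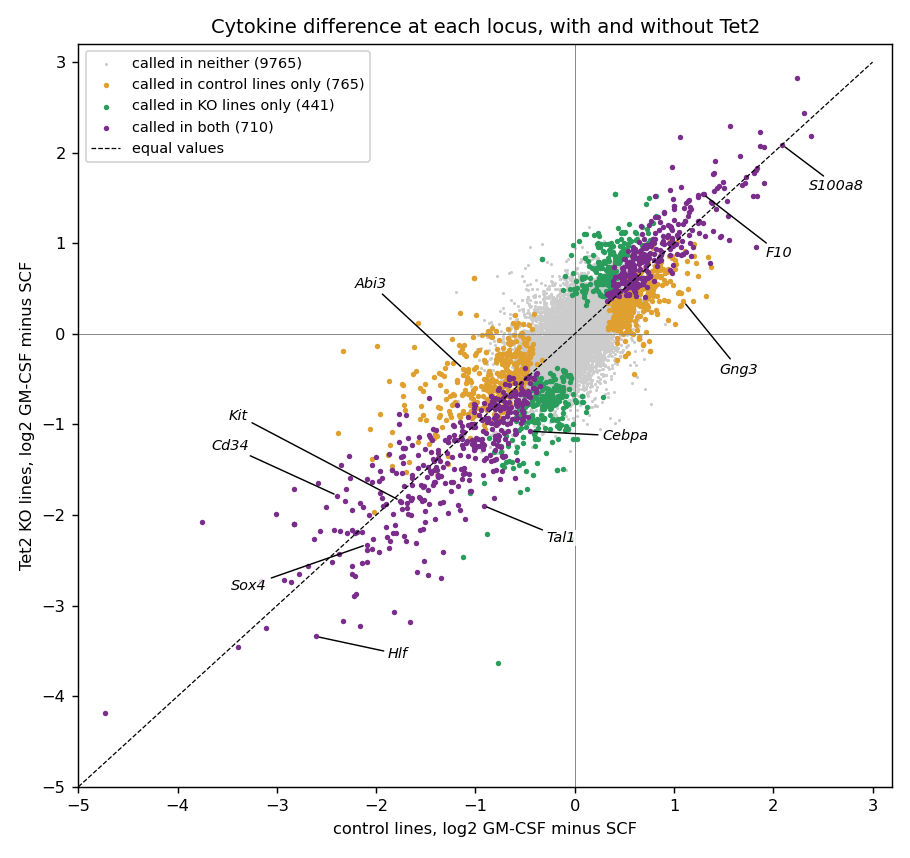
Log2 difference between GM-CSF and SCF lines at each locus tested in both genotypes, in control lines (x axis) and Tet2 KO lines (y axis), coloured by where it was called and with a dashed line of equal values. The 407 loci lower and the 303 loci higher in both genotypes lie at the lower left and the upper right, and none was called in opposite directions.

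Loci called in 1 genotype only mostly had the same sign in the other. In KO lines alone 206 were called higher and 235 lower, and 196 and 224 of them had the same sign in control lines, where their medians were 0.33 and -0.29 against 0.73 and -0.78 in KO lines. In control lines alone 372 were called higher and 393 lower, and 356 and 371 had the same sign in KO lines. Whether the cytokine difference itself differed between KO and control lines was tested over the 56 libraries together, with clone as the blocking term. No locus of 13135 passed (0%), and the smallest adjusted p was 0.998. An unadjusted p under 0.05 was found for 567, a smaller share of the loci than the 0.05 that chance alone gives. DESeq2 called 0 as well, with 379 at an unadjusted p under 0.05. The precision was low: over the loci called in both genotypes the median SE of this difference was 0.33 and its median size 0.18. A call that was made in KO lines alone is therefore not shown to be particular to them.

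Named loci with a gap between the genotypes did not pass either. Cebpa was lower by less in control lines (-0.45 ± 0.15, adjusted p = 0.0246) than in KO lines (-1.08 ± 0.18), with a difference of -0.62 ± 0.24 (unadjusted p = 0.0103). Tal1 had -1.90 ± 0.30 in KO lines and -0.92 ± 0.19 in control lines (difference -0.90 ± 0.38, unadjusted p = 0.0177). C5ar1, Lrg1, Il1a, Snai1, Cd79b, Maff and Ppia were called higher in KO lines and not called in control lines, where their log2 differences were 0.46, 0.50, 0.54, 0.46, 0.23, 0.26 and 0.00. Socs3, Jun, Myb, Dnmt3b and Polr2a were called lower in KO lines and not called in control lines, where they had -0.26, -0.18, -0.41, -0.56 and -0.12. Of the loci called in control lines only, those with the smallest p were Gng3, a G protein gamma subunit (0.36 ± 0.27 in KO lines, 1.09 ± 0.18 in control lines), and Bscl2, the seipin of lipid droplets (0.32 ± 0.27 in KO lines, 1.07 ± 0.18 in control lines), which had equal counts in each GM-CSF KO line. Rogdi had 0.22 ± 0.19 in KO lines and 0.83 ± 0.14 in control lines, and Smim22 0.23 ± 0.19 in KO lines and 0.82 ± 0.14 in control lines. Abi3, an actin regulator, was the fifth (-0.39 ± 0.21 in KO lines, -1.12 ± 0.19 in control lines).

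Single peaks place these differences. At an adjusted p at or under 0.01, 267 of 9670 tested peaks were higher (2.76%) and 720 lower (7.45%) in GM-CSF KO lines. Peaks within 1 kb of a transcription start were promoters, and they made up 74.8% of the tested peaks, but 59.9% of the higher and 33.9% of the lower. Of 2433 tested distal peaks 4.40% were higher and 19.6% lower, and of 7237 promoter peaks 2.21% and 3.37%. The split between higher and lower depended on the filter on counts, and the distal and promoter shares were not counted without it. With no filter 736 were higher and 347 lower, and only 9 of the 267 and 281 of the 720 were still called. Of the peaks that could be tested in control lines as well, 143 of 266 higher and 594 of 716 lower peaks had the same call there, and none the opposite.

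At Sox4, Hlf and Cebpa the peak at the start itself was lower. The Sox4 promoter peak, 45 bp upstream, had 30.1 ± 31.8 CPM in GM-CSF KO lines and 130 ± 29.9 CPM in SCF KO lines, and the Hlf promoter peak 2.82 ± 3.27 CPM in GM-CSF KO lines and 78.2 ± 31.8 CPM in SCF KO lines (SD, n = 4 and 24). The Cebpa promoter peak had 67.0 ± 50.1 CPM in GM-CSF KO lines and 242 ± 39.3 CPM in SCF KO lines. All 3 passed. The S100a8 and F10 promoter peaks had too few counts for the filter, with 57.2 ± 6.98 and 81.8 ± 40.7 CPM in GM-CSF KO lines, against 4.38 ± 6.06 and 10.7 ± 14.8 CPM in SCF KO lines. Other peaks with the smallest p were the Dstn promoter (1.54 ± 0.19), peaks near Tmem107 (1.64 ± 0.21) and Sik1 (2.81 ± 0.36) on the higher side, and peaks near Cxxc5 (-5.27 ± 0.59) and Neu4 (-3.36 ± 0.40) on the lower.

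**Figure D4:**
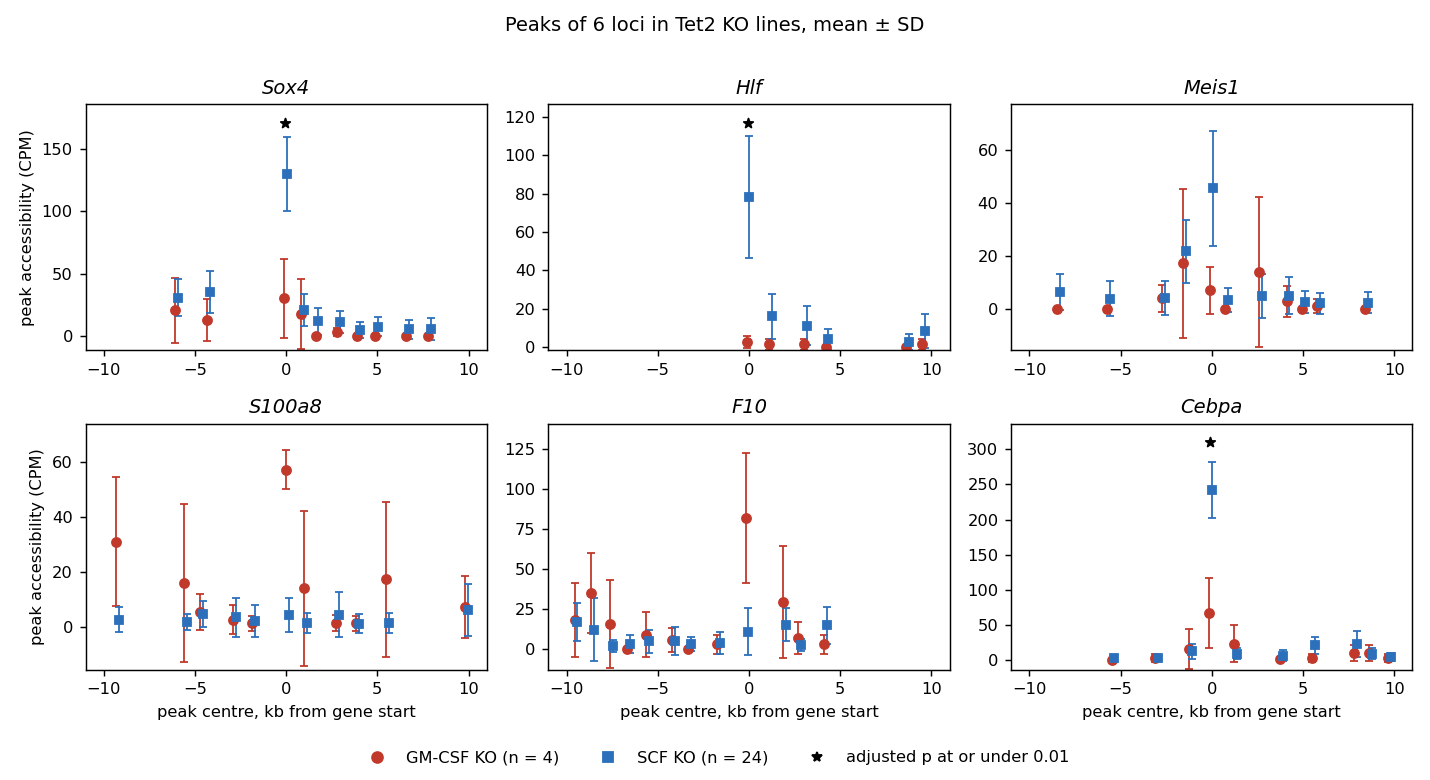
Mean accessibility in CPM (y axis, SD as bars) of each peak within 10 kb of the start of 6 genes (x axis, kb from the start) in GM-CSF KO lines (red circles, n = 4) and SCF KO lines (blue squares, n = 24), with a star over peaks at an adjusted p at or under 0.01. At Sox4, Hlf and Cebpa the peak at the start has a star, and the peaks at the starts of S100a8 and F10 have higher means in GM-CSF KO lines, 57.2 and 81.8 CPM, but were not tested.

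Binding motifs of distal peaks differed as well. For each library the share of its distal peak counts that lies in peaks with a consensus motif was taken, for 32 motifs, and 15 of them (46.9%) differed at an adjusted p under 0.05 in an exact two-sided permutation test over the 28 KO lines. Motifs overlap and shares are not independent. The GATA motif AGATAAG held 3.67, 3.52, 3.35 and 3.32% of distal counts in GM-CSF KO clones 19 to 22, against a lowest, median and highest of 3.95, 4.35 and 4.74% in SCF KO lines. This was the only motif of the 15 without overlap, and its p was the smallest that the divisions of these libraries can give (difference -0.915 percentage points, adjusted p = 0.00156). The RUNX motif TGTGGTT held 10.8, 11.1, 11.3 and 11.4% in GM-CSF KO lines, against 10.9, 12.8 and 14.5% in SCF KO lines, where 1 library of low depth fell into the GM-CSF range (difference -1.80, adjusted p = 0.00208). The MYB motif was also lower, with 2.08 ± 0.093% in GM-CSF KO lines and 2.34 ± 0.12% in SCF KO lines (SD; adjusted p = 0.00365, exact permutation).

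The STAT motif TTCNNNGAA held 8.24, 8.60, 8.63 and 8.64% in GM-CSF KO lines, against 7.90, 8.11 and 8.33% in SCF KO lines (difference 0.437, adjusted p = 0.00208). Clones 20 to 22 were above every SCF KO line and clone 19 was not. The CEBP motif TTGCNNAA held 13.0, 14.3, 15.8 and 16.0% in GM-CSF KO lines, against 12.8, 13.8 and 14.6% in SCF KO lines (difference 1.05, adjusted p = 0.0238), and clones 19 and 20 lay within the SCF KO range. The TEAD motif GGAATG (difference 0.714), the ZEB motif CACCTG (1.45), the NR4A motif AAAGGTCA (0.154) and the composite PU.1-IRF motif (0.104) were higher. The E2A motif CAGCTG (-0.613), the IRF motif (-0.162), the MAF motif (-0.160), the GATA-EBOX composite (-0.108), the NRF1 motif GCGCATGCG (-0.0766) and the SP motif GGGGCGGGG (-0.543) were lower, in percentage points. Of the 15 motifs, 7 kept their call in all 8 other settings, GATA, RUNX, MYB, STAT, TEAD, NR4A and PU.1-IRF. Among the remaining 8, the calls of CEBP (0.696 and 0.657) and E2A (-0.455 and -0.421) were lost without clone 21 and without clone 22. Those of ZEB (1.12 and 1.19), IRF (-0.104 and -0.142) and MAF (-0.132 and -0.140) were lost without clone 19 and without clone 20. NRF1 and SP lost theirs without clone 19, 20 or 22, and GATA-EBOX without clone 20, 21 or 22. With SCF clones 23 to 29 alone the CEBP difference was 1.26 and with clones 1 to 18 alone 0.958, neither called. Over all peaks in place of distal ones the differences were smaller for RUNX (-0.492) and GATA (-0.365), which were still called, and larger for SP (-2.05) and NRF1 (-0.381), while IRF (-0.0296) and MAF (-0.0234) were not called, and E2A and GATA-EBOX were 0.190 and 0.0648. The PU.1 motif itself was not called (difference -0.259, adjusted p = 0.475).

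In control lines the differences were -1.01 for GATA, -1.78 for RUNX, 0.354 for STAT and 1.24 for CEBP, and all 4 were called (adjusted p = 7.81e-04, 7.81e-04, 0.00104 and 0.00677, exact permutation). PU.1-IRF, MAF, NRF1 and SP were not called in control lines. Among the distal peaks called lower in GM-CSF KO lines 12.8% held the GATA motif and 26.9% the RUNX motif, against 4.89% and 17.8% of all distal peaks tested. Among the distal peaks called higher 29.0% held the CEBP motif, against 14.8% of those tested. These peaks were called on the same counts that gave the motif shares, so the percentages are not separate evidence. Which peaks were called depended on the filter on counts, and the percentages were not taken without it.

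**Figure D5:**
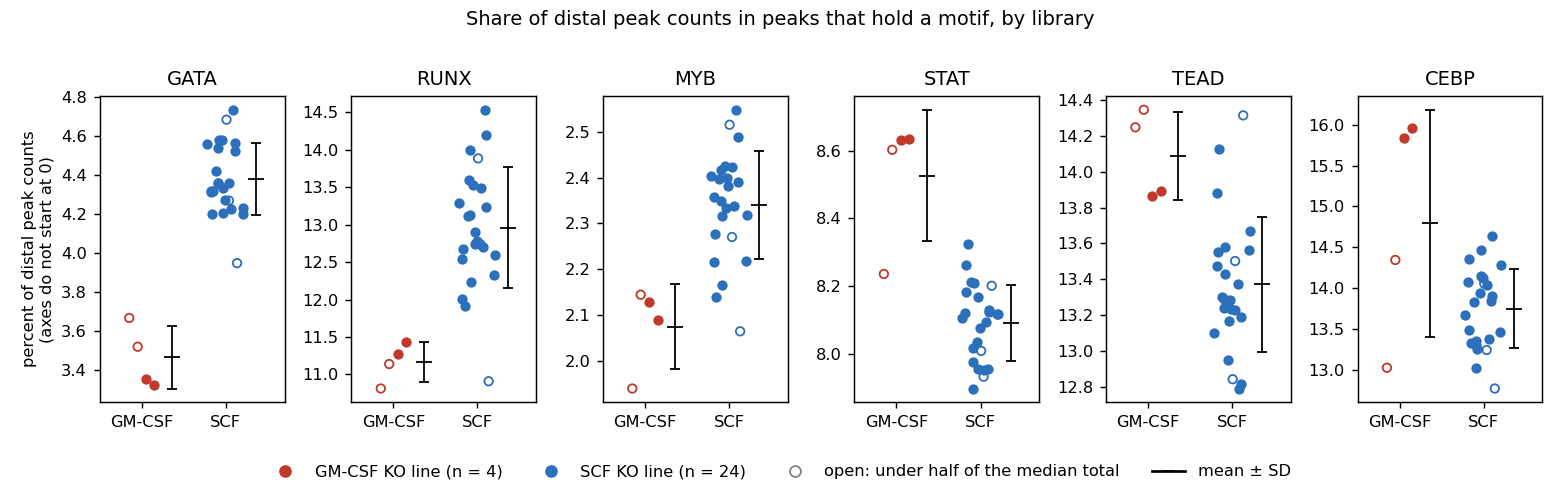
Percent of distal peak counts in peaks that hold a motif (y axis, not starting at 0) in each Tet2 KO line grown in GM-CSF (red) or SCF (blue), with mean and SD beside the points and open points for libraries under 50% of the median total count. GM-CSF KO lines lie between 3.32% and 3.67% for GATA, below all SCF KO lines, and for the other 5 motifs the groups overlap.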

How the data were processed

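The authors aligned the ATAC-seq reads to mm10 with Bowtie2 and processed them with SAMtools and Picard (versions not given in the sources used here), and the deposited values are raw counts per library in peaks of fixed width, set from single-cell and ImmGen data. Peaks centred within 10 kb of a protein-coding start (GENCODE vM21) were summed per locus. Counts were tested with edgeR 4.0.16 (quasi-likelihood, TMM, filterByExpr with a minimum count of 10, R 4.3.3) and Benjamini-Hochberg adjustment. Every adjusted p of a locus or peak comes from that test. Standard errors are the log2 difference over the root of F. The KO by cytokine term was fitted with the clone as a block, since KO and control lines share clones. DESeq2 1.42.0 was an alternative. Motif shares were compared by exact permutation (SciPy 1.17.1). Code was tested on simulated data. The members and lists were chosen with earlier results of these data known. Named genes were the 10 largest called differences in each direction among loci with a mean of at least 69.3 CPM, up to 6 members per list with the largest change, the defining markers, the 5 peaks per direction with the smallest p, genes the study discussed, and the 5 smallest p among loci called in control lines only. Where nothing tells of separate cultures beyond the clone label, p-values measure the spread between these lines. Some results that met these rules are not reported here.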

Additional observations from a re-analysis of the deposited data

Results flagged for a closer look

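Of 73 values examined in the 4 GM-CSF KO lines, 9 had 1 line far from the other 3 (a gap to the nearest of the others past Dixon's 95% limit). For continuous values chance gives this in about 1 in 20, a rate that does not hold for values resting on few counts. In 3 of them the line had the lowest value: 8.24% for the STAT motif share, 1.51% for the NR4A motif share and 0 CPM for Ccno, all in clone 19. In others it had the highest value: 102 CPM for Sox4 and 169 CPM for Kit in clone 19, 149 CPM for Cebpe in clone 22, and 5.37 and 16.1 CPM in clone 21 for the Cxxc5 and Rpn1 peaks, where the other 3 lines were at 0 and the gap is the whole range by construction. Values of clone 19 rest on a total of 40876 counts, and the part of depth in them was not tested.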

How the results depend on the processing

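The counts of higher and lower loci in GM-CSF KO lines were 218 and 417 with a 1 kb window, 948 and 1017 with 50 kb, and 263 and 377 with DESeq2. Leaving out each line gave 139 to 524 higher and 240 to 705 lower loci, lowest without clone 22. In control lines leaving out each GM-CSF line gave 293 to 715 and 341 to 841. Peaks numbered 110 and 456 with DESeq2, 126 and 452 with SCF clones 23 to 29 alone, 656 and 1231 at a minimum count of 5, 736 and 347 with no filter, 547 and 1094 at a threshold of 0.05, and 601 higher without libraries of low depth. Leaving out each GM-CSF KO line gave 67 to 335 and 283 to 763 peaks. With SCF clones 23 to 29 alone 190 loci were higher in both genotypes. Without the clone block the cytokine difference still differed between genotypes at 0 loci. Reversed values were 0.0648 (GATA-EBOX) and 0.190 (E2A) over all peaks, and at 50 kb -0.0027 for Nfic, 0.00865 for Mpo, -0.10 for Gapdh and -0.41 for Egln3. The causes were not tested. Leaving out 1 GM-CSF KO line gave 10 to 12 called motifs, and no SCF KO line was left out there. Of 84 named called loci, 35 kept their call in every setting that tested them. The shallow clones 19 and 20 limit single values most.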
